A study of Mus musculus with 7 samples.

Results

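The 30 genes described here encode enzymes of cholesterol synthesis, the proteins that control the transcription factor SREBP2, and the sterol transporters and acyltransferases of the liver, several of which are known targets of the liver X receptors (LXR). They were chosen by gene symbol, and all 30 were found among the 14851 Ensembl genes of the deposited expression table. All 30 also passed the filter on low values (a mean of at least 10 normalised counts over the livers), which kept 12545 genes for testing.

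Whole livers were compared between *Albumin-Cre; p53 FL/FL* mice (FL, 4 livers) and *Albumin-Cre; p53 WT/WT* mice (WT, 3 livers), all sampled 8 h after a single intraperitoneal injection of carbon tetrachloride (CCl4), a solvent that injures the liver and sets off its regeneration. All animals were C57BL/6J (N10) males of about 70 days on normal chow, carried the *Albumin-Cre* transgene, and received 1 mL/kg of a 20% (v/v) CCl4 solution in corn oil. The *Albumin* promoter drives Cre in hepatocytes and their precursors, so not every cell of an FL liver is expected to lose *Trp53*, and some mice of both genotypes also carried a *Rosa26 LSL-tdRFP* reporter allele. There were no uninjected livers of this design among the samples used, so no value below measures the response to CCl4 itself. The source names in the labels share a prefix within the WT group that no FL sample carries. What the prefix stands for is not stated, and it cannot be told apart from the genotype.

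The polyA RNA libraries had total normalised counts between 14123213 and 16554427, which corresponded to an estimated 11.9 to 19.5 M counted reads. *Trp53* (chromosome 11) had 110 to 217 normalised counts in the FL livers and 688 to 876 in the WT livers, and its log2 fold change was -2.47 ± 0.23 (SE; limma adjusted p = 0.0447). All 8 hepatocyte markers examined were detected, with summed levels of 391052 to 573137 normalised counts in FL and 363750 to 526902 in WT livers.

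Of the 7 livers, 2 stood apart from the rest. The first principal component of all tested genes held 66.7% of the variance and placed WT liver 2 at 82.0 and FL liver 3 at 29.2, with the other livers between -25.6 and -19.1. In WT liver 2 all 8 macrophage markers (summed level 14199, against 5241 and 5995 in the other WT livers and 5276 to 8577 in FL), all 6 stellate cell markers (10780, against 2511 and 2806, and 2653 to 3744), all 5 lymphocyte markers (183, against 25 and 48, and 29 to 101) and 7 of 8 proliferation markers (1415, against 395 and 417, and 344 to 566) had their highest value. The summed endothelial markers (6 genes, 4 of them highest in WT liver 2) spanned 2383 to 3334 in WT and 2608 to 3035 in FL livers, the bile duct markers (5 genes) 879 to 1204 and 603 to 1482, and the neutrophil markers (4 of the 5 listed genes were in the table) 40 to 67 and 19 to 60. No marker was at 0 in every liver. These differences moved with several results below, and their part in them was not tested. Fewer cells of a type and less RNA per cell cannot be told apart in such bulk samples. Each main result is therefore given with all 7 livers, without WT liver 2, and without both livers.

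Cholesterol is built from acetyl-CoA through mevalonate, isoprenoids, squalene and lanosterol, and most of the enzymes are transcribed under SREBP2. When membrane sterol is low, the escort protein SCAP carries SREBP2 from the endoplasmic reticulum to the Golgi, where it is cut and released to the nucleus, and INSIG proteins hold the complex back when sterol is plentiful. Oxysterols and sterol intermediates activate LXR, which induces transporters that move sterol out of the cell, and the hepatocyte secretes the surplus into bile or stores it as esters.

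No member passed the test between the genotypes after correction. In limma, 0 of 30 members passed an adjusted p of 0.05 (the adjusted p was 0.999 or above for each member), beside 2 of all 12545 genes tested (0.0159%). At an unadjusted p under 0.05 there were 2 members, *Sc5d* and *Insig2*, beside 3.2% of all genes. Both groups were disjoint for 3 members (10% of 30), *Sc5d*, *Insig2* and *Mylip*, each higher in FL, where 2.77% of all genes were. For the opposite order the count was 0 members, beside 1.98% of all genes. The SE of the log2 fold change ran from 0.0946 for *Soat2* to 0.487 for *Fdps* and was under 0.2 for 16 members. The 95% interval excluded a 2-fold difference in either direction for 23 of the 30.

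The direction of the whole list rested on WT liver 2. With all livers 23 members had a positive log2 fold change (higher in FL) and 7 a negative one, with a median of 0.09 beside 0.01 over all genes, of which 51.6% were positive. Without WT liver 2 the members split 15 to 15 with a median of 0.00, and 4 of them had an unadjusted p under 0.05, beside 5.97% of all genes. Without WT liver 2 and FL liver 3 the split was again 15 to 15, with 5 members under 0.05, beside 9.74% of all genes. No member passed the adjusted threshold in either fit, in which 0 and 6 genes (0.0487%) did.

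**Figure D1:**
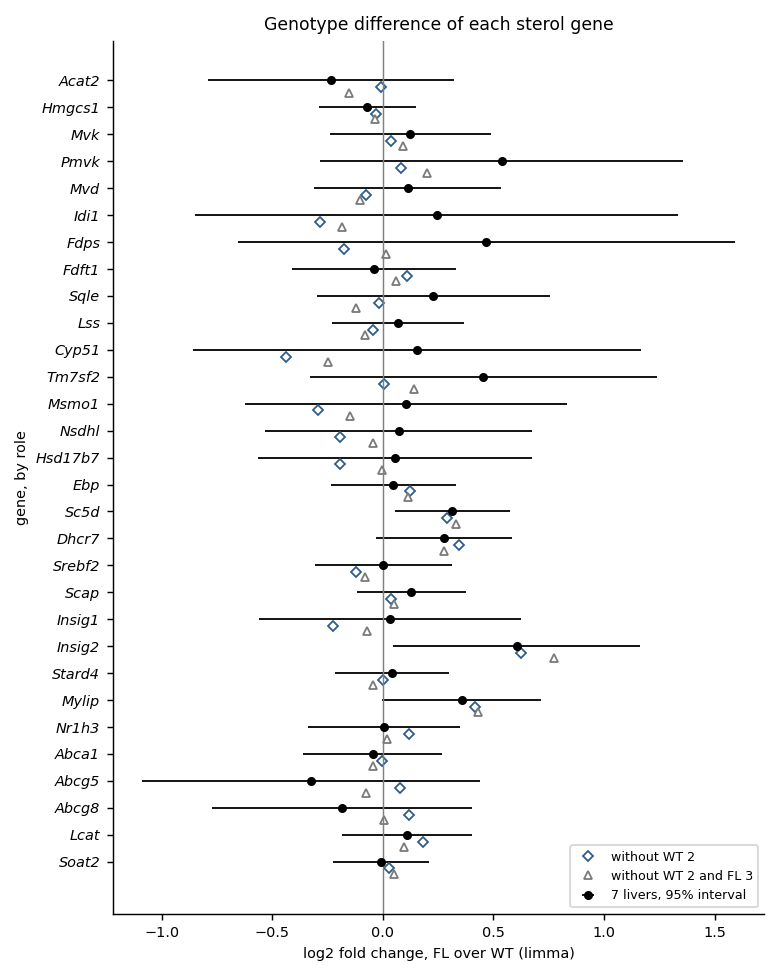
The log2 fold change of each member, FL against WT, in order of role along the vertical axis. Filled points and lines are the limma estimate and 95% interval with all 7 livers, diamonds the estimate without WT liver 2 and triangles that without WT liver 2 and FL liver 3. The intervals of *Sc5d* and *Insig2* lie above 0 and all others cross it.

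Among the early steps, 5 of 7 members were higher and 2 lower in FL by sign with all livers, and 2 and 5 without WT liver 2. *Acat2*, the cytosolic thiolase that joins acetyl-CoA units, had a log2 fold change of -0.24 ± 0.24 (SE), and *Hmgcs1*, which makes HMG-CoA, one of -0.07 ± 0.10 over a range of 580 to 666 normalised counts in the 7 livers. *Mvk*, mevalonate kinase, and *Mvd*, which decarboxylates the diphosphate, had log2 fold changes of 0.12 ± 0.16 and 0.11 ± 0.18. All 4 intervals included 0.

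*Pmvk*, the phosphomevalonate kinase (chr3:89454541-89469013), had 667, 597, 509 and 893 normalised counts in FL livers 1 to 4 and 632, 238 and 602 in WT livers 1 to 3. The groups overlapped, and WT liver 2 held the low end on its own. The log2 fold change was 0.54 ± 0.35 (limma unadjusted p = 0.169; exact permutation p = 0.343) and 0.08 ± 0.20 without that liver. *Fdps*, which makes farnesyl diphosphate (chr3:89093588-89101959), had 416, 479, 295 and 624 normalised counts in FL and 479, 129 and 511 in WT livers. WT liver 2 was again lowest and FL liver 3 the lowest of its group. For *Fdps* the log2 fold change was 0.47 ± 0.49 with all livers and -0.18 ± 0.25 without WT liver 2. *Idi1*, the isopentenyl diphosphate isomerase (chr13:8885501-8892451), was barely above the filter, with 12, 18, 11 and 15 in FL and 18, 5 and 16 in WT livers. Its log2 fold change of 0.24 ± 0.47 turned to -0.28 ± 0.34 without WT liver 2. Of all 36-base stretches in the exons of *Fdps* and *Idi1*, 27.6% and 26.5% also occurred in exons of other genes, among them unnamed gene models, so some of their reads may have been assigned elsewhere or discarded. This share was 42.3% for *Acat2* (shared with *Acat3* and *Tcp1*) and 30.3% for *Fdft1* (shared with *Ctsb* and a gene model), and 7 members were above 10%. The library kit keeps strand, but whether the counting used it is not given in the sources used here.

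None of the 3 squalene and lanosterol enzymes had an interval that excluded 0. *Fdft1*, squalene synthase, ranged from 216 to 278 normalised counts in FL and from 219 to 318 in WT livers (log2 fold change -0.04 ± 0.16). *Sqle*, squalene epoxidase and a rate-controlling step, ranged from 481 to 762 in FL and from 371 to 644 in WT livers (0.23 ± 0.23, and -0.02 ± 0.18 without WT liver 2). *Lss*, lanosterol synthase, had a log2 fold change of 0.07 ± 0.13, with a 95% interval of -0.23 to 0.37.

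All 8 late enzymes, which turn lanosterol into cholesterol, had a positive log2 fold change with all livers (median 0.13), and 4 of 8 had one without WT liver 2. *Sc5d*, the sterol C5 desaturase (chr9:42251595-42264256), had 3730, 2979, 2962 and 3356 normalised counts in FL livers and 2645, 2514 and 2664 in WT livers. Every FL liver was above every WT liver, and the WT livers lay close together. The FL mean was 3257 ± 364 (SD, n = 4) and the WT mean 2608 ± 81.7 (SD, n = 3), 24.9% higher in FL. The log2 fold change was 0.31 ± 0.11 with a 95% interval of 0.05 to 0.58 (limma unadjusted p = 0.0244, adjusted p = 0.999). An exact two-sided permutation test gave p = 0.029, the smallest that the 35 possible splits of these livers allow. *Sc5d* had a log2 fold change of 0.29 ± 0.12 without WT liver 2 and 0.33 ± 0.10 without both livers (limma adjusted p = 0.787 and 0.349).

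*Dhcr7*, the reductase of the last step to cholesterol in one branch of the pathway (chr7:143823145-143848410), had 694, 655, 868 and 822 normalised counts in FL and 581, 684 and 607 in WT livers. Only FL liver 2 and WT liver 2 overlapped. Its log2 fold change was 0.28 ± 0.13 (limma unadjusted p = 0.0716, adjusted p = 0.999; exact permutation p = 0.143), 0.35 ± 0.14 without WT liver 2 and 0.28 ± 0.11 without both livers.

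*Cyp51*, the lanosterol 14-alpha demethylase (chr5:4081145-4104746), had 1435, 1413, 833 and 1348 normalised counts in FL and 1699, 486 and 1628 in WT livers. The spread within WT was wider than any difference between the means, which were 1257 ± 285 (SD, n = 4) and 1271 ± 681 (SD, n = 3). On the log2 scale the fold change was 0.15 ± 0.44 with all livers, -0.44 ± 0.22 without WT liver 2 and -0.25 ± 0.08 without both livers (limma unadjusted p = 0.0123, adjusted p = 0.365). *Tm7sf2*, a sterol C14 reductase (chr19:6062821-6068373), had 1966, 1960, 1428 and 2277 in FL and 2024, 737 and 1734 in WT livers. Its log2 fold change was 0.45 ± 0.34, and 0.01 ± 0.18 without WT liver 2.

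Of the enzymes that remove the C4 methyl groups, *Msmo1*, the C4 methyl oxidase, ranged from 457 to 702 normalised counts in FL and from 329 to 809 in WT livers (log2 fold change 0.11 ± 0.32). *Nsdhl*, the C4 decarboxylase, ranged from 310 to 551 and from 278 to 516 (0.07 ± 0.26), and *Hsd17b7*, the 3-keto reductase, from 408 to 788 and from 413 to 720 (0.06 ± 0.27). Without WT liver 2 these 3 log2 fold changes were -0.30, -0.19 and -0.20. *Ebp*, the sterol isomerase, ranged from 2716 to 3296 in FL and from 2495 to 3179 in WT livers and differed by 0.05 ± 0.12.

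**Figure D2:**
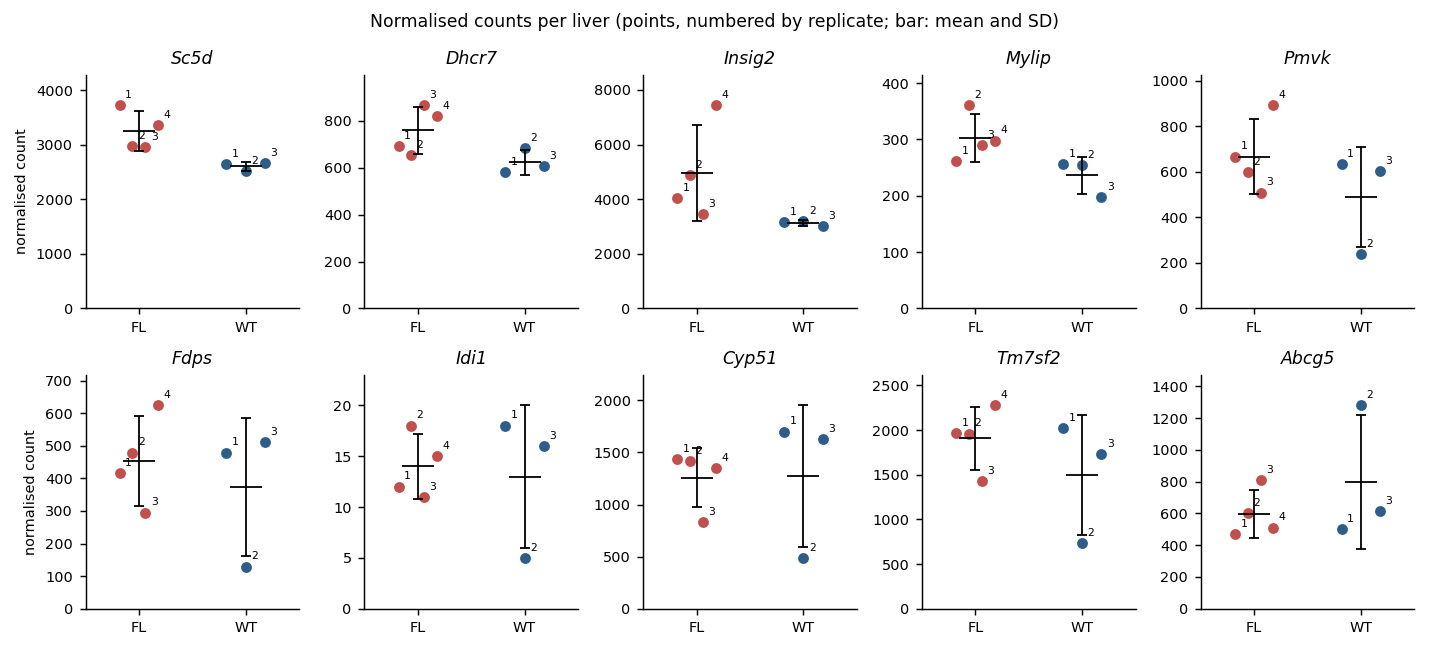
Normalised counts in each liver (vertical axes, each from 0) for selected members, with FL and WT livers as separate columns of points, numbered by replicate, and the mean and SD of each group as a horizontal line with whiskers. The columns are disjoint for *Sc5d*, *Insig2* and *Mylip*, and in the most variable genes 1 WT liver lies far from the other WT livers.

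In the control of SREBP2, *Insig2* had the largest log2 fold change of the 30 members with all livers. Without WT liver 1 it was 0.61, below *Pmvk* (0.78), *Fdps* (0.77) and *Tm7sf2* (0.73), and without WT liver 3 it was 0.58, below *Fdps* (0.81), *Pmvk* (0.75) and *Tm7sf2* (0.62). INSIG2 retains the SCAP complex in the endoplasmic reticulum, and its gene (chr1:121304353-121332589) is known in liver to be repressed by insulin. It had 4031, 4891, 3443 and 7445 normalised counts in FL livers and 3155, 3197 and 3007 in WT livers. Every FL liver was above every WT liver, and FL liver 4 was the highest by a wide margin. The means were 4953 ± 1765 (SD, n = 4) and 3120 ± 99.8 (SD, n = 3). The log2 fold change was 0.60 ± 0.24 with a 95% interval of 0.04 to 1.16 (limma unadjusted p = 0.0376, adjusted p = 0.999; exact permutation p = 0.0571). It was 0.62 ± 0.27 without WT liver 2 and 0.78 ± 0.21 without both livers (adjusted p = 0.787 and 0.284 in limma), and 0.39 without FL liver 4. No 36-base stretch of its exons was shared with another gene.

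The log2 fold changes of the other control genes were smaller. *Insig1*, the INSIG form that is itself an SREBP2 target, ranged from 786 to 1359 normalised counts in FL and from 738 to 1270 in WT livers (log2 fold change 0.03 ± 0.26). *Srebf2*, which encodes SREBP2, ranged from 992 to 1187 in FL and from 912 to 1251 in WT livers (0.00 ± 0.13, 95% interval -0.31 to 0.31). *Scap* had a log2 fold change of 0.13 ± 0.11, and 0.04 ± 0.09 without WT liver 2. *Stard4*, a cytosolic sterol transfer protein under SREBP2, had a log2 fold change of 0.04 ± 0.11.

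*Mylip* encodes IDOL, an LXR-induced ubiquitin ligase that sends lipoprotein receptors to degradation (chr13:45389742-45412022). It had 261, 361, 290 and 298 normalised counts in FL and 256, 254 and 198 in WT livers. The groups did not overlap, but the lowest FL and the highest WT liver were 5 counts apart. The means were 303 ± 42.1 (SD, n = 4) and 236 ± 32.9 (SD, n = 3), and the log2 fold change was 0.36 ± 0.16 (limma unadjusted p = 0.0516, adjusted p = 0.999; exact permutation p = 0.0571). It was 0.41 ± 0.17 without WT liver 2 and 0.43 ± 0.17 without both livers.

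The log2 fold changes of LXR alpha itself and of its efflux target lay near 0. *Nr1h3*, which encodes LXR alpha, ranged from 1731 to 2334 normalised counts in FL and from 1710 to 2205 in WT livers (log2 fold change 0.00 ± 0.15). *Abca1*, which loads cholesterol onto nascent high-density lipoprotein, ranged from 989 to 1393 in FL and from 1232 to 1353 in WT livers (-0.05 ± 0.14).

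*Abcg5* and *Abcg8* encode the paired subunits of the transporter that secretes sterols into bile. *Abcg5* (chr17:84658234-84683011) had 468, 604, 808 and 510 normalised counts in FL and 499, 1280 and 614 in WT livers, and *Abcg8* (chr17:84676302-84700333) had 644, 731, 953 and 706 in FL and 617, 1298 and 775 in WT livers. Both had their highest value in WT liver 2 and their second highest in FL liver 3. The log2 fold changes were -0.32 ± 0.33 and -0.19 ± 0.25 with all livers, and 0.08 ± 0.21 and 0.12 ± 0.17 without WT liver 2. The genes lie head to head, and their RefSeq start sites (GRCm38.p6) are 110 bases apart. The 109 bases between those start sites are shown because both genes read outwards from them; the strand is that of *Abcg8* and the interval is chr17:84683012-84683120.
Abcg5-Abcg8: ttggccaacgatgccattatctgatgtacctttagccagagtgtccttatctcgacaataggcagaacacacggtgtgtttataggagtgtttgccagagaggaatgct

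The esterification genes were close in the 2 groups. *Lcat*, the plasma enzyme that esterifies cholesterol on lipoproteins, ranged from 6201 to 7958 normalised counts in FL and from 5866 to 6845 in WT livers (log2 fold change 0.11 ± 0.13). *Soat2*, which esterifies cholesterol inside hepatocytes, ranged from 1416 to 1580 and from 1418 to 1567, with a log2 fold change of -0.01 ± 0.09 and a 95% interval of -0.23 to 0.21, the narrowest of the 30.

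Several members varied more among the WT livers than between the genotypes. WT liver 2 was below all of the other 6 livers for 15 of 30 members (50%), beside 33.9% of all genes tested, and above them for 5 (16.7%), beside 31.5%. Among the 18 synthesis enzymes it was lowest for 12 (66.7%), and among the 4 control genes it was lowest for *Srebf2*, *Scap* and *Insig1*. The 5 members at their highest in WT liver 2 were *Acat2*, *Hmgcs1*, *Fdft1*, *Abcg5* and *Abcg8*.

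The size of this difference varied between genes, which are given here by size and not by step. Relative to the mean of WT livers 1 and 3, WT liver 2 had 26.1% of *Fdps*, 29.2% of *Cyp51*, 29.4% of *Idi1*, 38.6% of *Pmvk*, 39.2% of *Tm7sf2* and 43.2% of *Msmo1*. *Nsdhl*, *Insig1*, *Hsd17b7* and *Sqle* were between 57.4% and 60.0%. *Mvd*, *Lss* and *Mvk* were between 67.2% and 82.3%, and *Sc5d* was at 94.7%. In the opposite direction *Abcg5* was at 230.0%, *Abcg8* at 186.5% and *Acat2* at 161.5%. The enzymes *Hmgcs1*, *Dhcr7*, *Ebp* and *Fdft1* were between 108.4% and 136.8%.

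FL liver 3 also differed from its own group. It was the lowest FL liver for 14 members (46.7%, beside 34.5% of all genes) and the highest for 10 (33.3%, beside 4393 of the 12545 genes). Of the 15 members lowest in WT liver 2, 11 (73.3%) were also lowest among FL livers in FL liver 3, a share close to the 69.8% of all genes that were lowest in WT liver 2. Relative to the mean of the other FL livers, FL liver 3 had 58.3% of *Fdps*, 58.5% of *Hsd17b7*, 59.6% of *Cyp51* and 64.9% of *Insig1*, and 153.2% of *Abcg5* and 137.4% of *Abcg8*. *Insig2* was at 63.1% in FL liver 3, against a mean that includes the 7445 normalised counts of FL liver 4. Its 3443 in FL liver 3 was above every WT liver, and it was not low in WT liver 2. The same 2 livers had the highest summed macrophage, stellate cell, lymphocyte and proliferation markers. They also had the highest summed hepatocyte markers (526902 in WT liver 2 and 573137 in FL liver 3) and endothelial markers (3334 and 3035). Only 2 of the 8 hepatocyte markers had their highest value in WT liver 2. The mean log2 difference of the 8 hepatocyte markers was 0.13 in WT liver 2, 0.14 in FL liver 4 and 0.32 in FL liver 3. The part of all these markers in the values above was not tested.

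**Figure D3:**
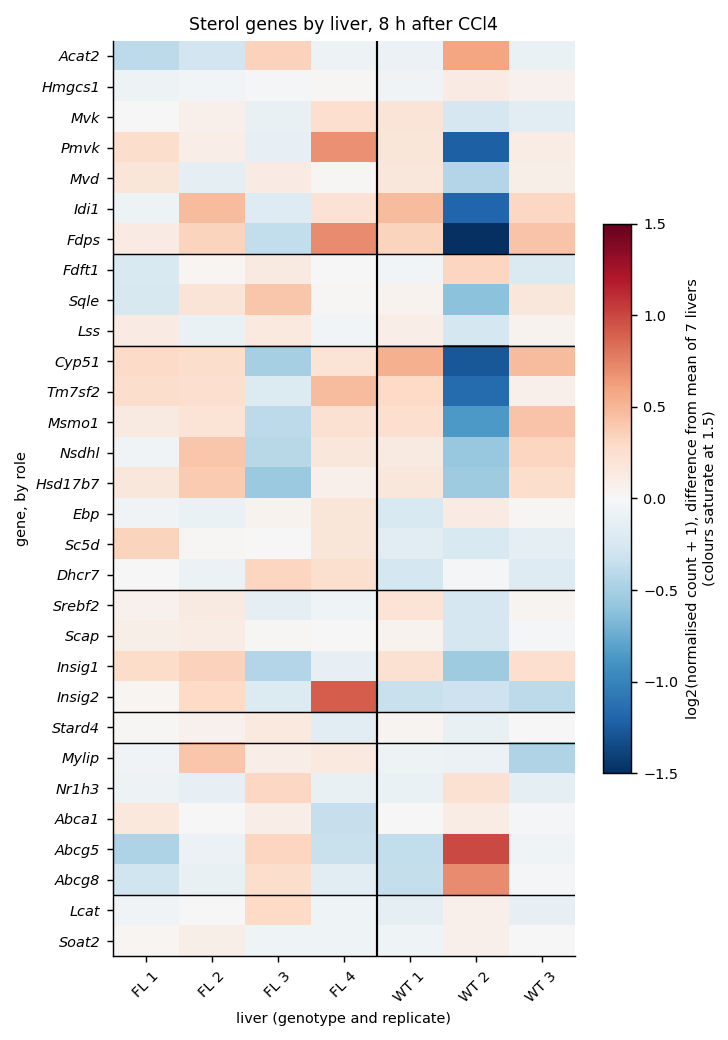
Each member's log2 difference from its own mean over the 7 livers on the log2(normalised count + 1) scale (colours, saturating at 1.5), with members in rows by role and livers in columns. WT liver 2 is low for most synthesis enzymes, with FL liver 3 in the same direction for many of them, and both are high for *Abcg5* and *Abcg8*.

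Averaged over the 18 synthesis enzymes, the log2 difference from the mean of all livers was 0.04, 0.11, -0.07 and 0.20 in FL livers 1 to 4 and 0.11, -0.50 and 0.11 in WT livers 1 to 3. WT liver 2 was the lowest and FL liver 3 the next. Averaged over the 5 LXR and transport genes (*Nr1h3*, *Abca1*, *Abcg5*, *Abcg8* and *Mylip*), the values were -0.14, 0.02, 0.22 and -0.16 in FL and -0.18, 0.39 and -0.14 in WT livers. By this mean WT liver 2 was highest and FL liver 3 next, the reverse of their place for synthesis. The other livers were not in reverse order. FL liver 4 was highest for synthesis (0.20), and WT liver 1 was lowest for transport (-0.18). With the median over the 5 genes, FL liver 3 was highest (0.27) and WT liver 2 next (0.23). In WT liver 2 the log2 difference was 0.99 for *Abcg5* and 0.71 for *Abcg8*. It was 0.23 for *Nr1h3*, 0.11 for *Abca1* and -0.09 for *Mylip*. Both averages are descriptions of the livers with no test.

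**Figure D4:**
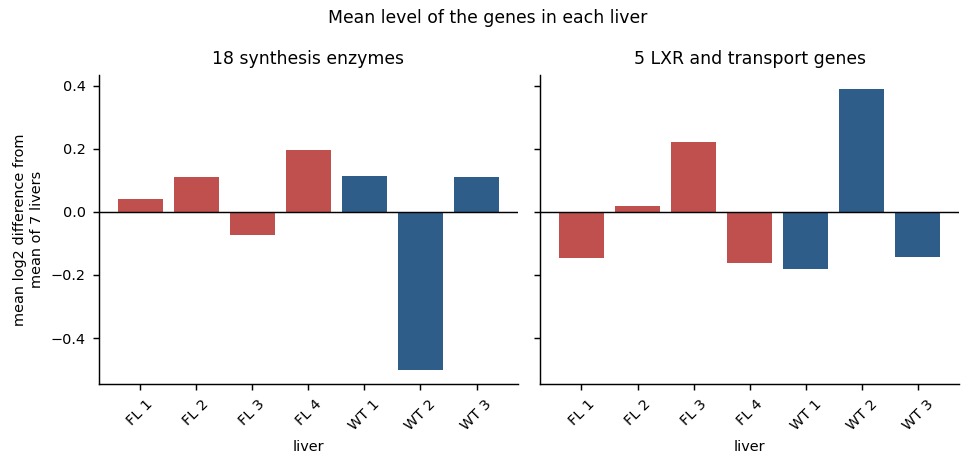
Mean log2 difference from the mean of the 7 livers, for the 18 synthesis enzymes and for the 5 LXR and transport genes, with 1 bar for each liver (FL red, WT blue). WT liver 2 is at -0.50 for synthesis and 0.39 for transport, and the other WT livers lie near the FL livers in both.

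The promoters of the members were examined for the letters of known sterol and LXR elements, as a description with no test. RefSeq promoters (GRCm38.p6, 250 bases before to 50 after the start site) were matched for 25 of the 30 members, and both strands were searched. The box CCAAT, bound by NF-Y, a factor that acts beside SREBP2, occurred in 21 of 25 members (84.0%) and in 14 of the 15 matched synthesis enzymes (93.3%), beside 41.1% of all genes with a promoter and 42.7% of those tested here. *Abca1*, *Acat2*, *Nr1h3* and *Scap* lacked it in this window. The box was not confined to members low in WT liver 2. *Hmgcs1*, *Abcg5* and *Abcg8* had it and were highest in that liver, as *Acat2* was without it. The only box of *Abcg5* is the same stretch as the *Abcg8* box 114 bases before the *Abcg8* start site, and it was counted for both genes. *Scap* lacked the box and was lowest there. The sterol regulatory element TCACNCCAC occurred in 1 of 25 (4.0%), beside 1.44% of all genes, and the LXR direct repeat (DR4) in 0 of 25, beside 0.02% of all genes. The letters searched for 1 motif do not contain those of another, a match is not a measured binding site, and a missing match says only that those letters are not in the window.

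The stretches around the box are shown for 6 enzymes that had their lowest WT value in liver 2 and for both INSIG genes, of which only *Insig1* was low there. Each is 5′ to 3′ on the strand of its gene, and capitals mark the box, which reads ATTGG where it lies on the other strand. They lie at chr5:4104702-4104746 (*Cyp51*, minus strand), chr19:6067873-6067917 (*Tm7sf2*, minus), chr8:64733609-64733653 (*Msmo1*, minus), chrX:72918392-72918436 (*Nsdhl*, plus), chr1:169969254-169969298 (*Hsd17b7*, minus), chr3:89454385-89454429 (*Pmvk*, plus), chr5:28071176-28071220 (*Insig1*, plus) and chr1:121332594-121332638 (*Insig2*, minus).
Cyp51: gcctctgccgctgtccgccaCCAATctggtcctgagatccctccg
Tm7sf2: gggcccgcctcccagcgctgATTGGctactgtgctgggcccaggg
Msmo1: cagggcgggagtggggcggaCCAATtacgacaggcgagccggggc
Nsdhl: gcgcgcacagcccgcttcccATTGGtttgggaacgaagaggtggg
Hsd17b7: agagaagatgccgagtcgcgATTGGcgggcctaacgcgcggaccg
Pmvk: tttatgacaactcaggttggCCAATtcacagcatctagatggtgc
Insig1: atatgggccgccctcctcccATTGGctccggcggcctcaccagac
Insig2: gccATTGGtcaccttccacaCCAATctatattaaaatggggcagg

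The 1 member with the full sterol element was *Hmgcs1*, shown because it had the smallest spread of the early enzymes and was not low in WT liver 2. The stretch is at chr13:119690194-119690242 on the plus strand, and capitals mark the element.
Hmgcs1: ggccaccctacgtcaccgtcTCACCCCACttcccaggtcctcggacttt

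Levels could be compared between genes only per length, taken as all annotated exons of a gene merged. Long annotated exons therefore lower the value of a gene. On the scale of normalised counts per kilobase of exon, averaged over the 7 livers, *Lcat* was the highest at 4853, followed by *Ebp* at 1267, *Insig2* at 1200, *Nr1h3* at 754, *Soat2* at 672 and *Sc5d* at 612. *Idi1* was the lowest at 3.87, with 26.5% of its 36-base stretches shared with other genes. *Abcg5* and *Abcg8*, whose products pair in the membrane, were at 252 and 218. *Insig2* was higher than *Insig1* (355) on this scale, and the ranges over the livers did not overlap.

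**Figure D5:**
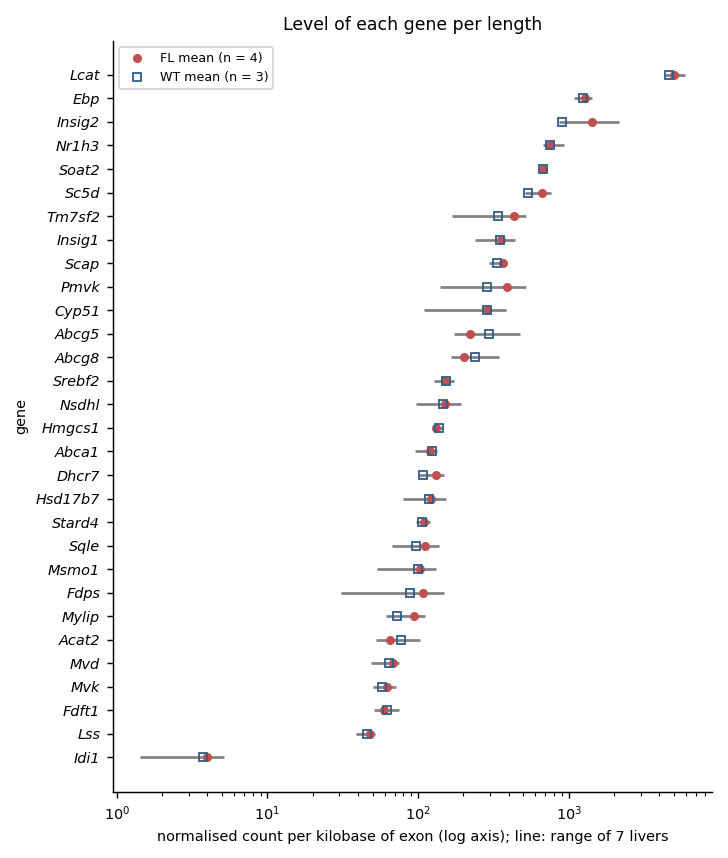
Normalised counts per kilobase of exon for each member (log axis), with the mean of FL (filled points) and of WT (open squares) and a line for the range over the 7 livers. The members span from 3.87 for *Idi1* to 4853 for *Lcat*, and the FL and WT means lie close together for most genes.

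Of 30 further sterol genes (SREBP processing, sterol-responsive targets, uptake, intracellular transport, and LXR partners and targets), 16 were higher and 14 lower in FL by sign (median log2 fold change 0.03), 0 passed the adjusted threshold, and 1 had an unadjusted p under 0.05. This was *Srebf1*, which encodes SREBP1, the LXR- and insulin-responsive regulator of fatty acid synthesis. It had 2150, 2376, 3447 and 2118 normalised counts in FL and 1576, 2034 and 1591 in WT livers. The groups did not overlap, and the highest liver of each was FL liver 3 and WT liver 2. *Srebf1* had a log2 fold change of 0.52 ± 0.19 (limma unadjusted p = 0.0271, adjusted p = 0.999), 0.64 without WT liver 2 and 0.48 without both livers (limma adjusted p = 0.142). *Srebf1* (from base 60199089) lies on chromosome 11, as *Trp53* (from base 69580359) does. So do *Tmem97*, *Acly* and *Stard3* of the same list, with log2 fold changes of -0.24 ± 0.20, 0.15 ± 0.17 and -0.05 ± 0.10, and 0 of the 30 members. These 3 genes begin at bases 78541817, 100476353 and 98358368, so their distances from *Trp53* differ. The part of position on the chromosome was not tested.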

How the data were processed

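PolyA RNA from 7 whole livers was sequenced. The authors demultiplexed reads with bcl2fastq 2.15.0.4, aligned them with TopHat2 2.0.13 and Bowtie2 2.2.6.0, and counted them with HTSeq 2.2.4.0 (featureCounts is also listed in the submitters' processing notes). The notes name the genome build as GRCh38, a human name, although the identifiers are those of mouse genes. The deposited values are a score: counts normalised with DESeq2 in R 3.4.2 by the authors and rounded to whole numbers, so no count test was run. The table had 14988 rows for 14851 identifiers (120 repeated, each with the same values, used once), of which 14839 had a symbol in the GENCODE GRCm38 annotation, the source of gene coordinates.

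Genes with a mean of at least 10 were fitted with limma 3.58.1 in R 4.3.3 (trend, no covariate) on log2(normalised count + 1), a scale that understates changes of low genes. FL was compared with WT, with Benjamini-Hochberg adjustment over all tested genes and a threshold of 0.05. Single genes were also tested by exact permutation (two-sided) over all 35 ways to divide the livers. Read numbers were estimated from the spacing of the rounded values, checked on simulated libraries, and cover counting only. The members and lists were chosen with earlier results of these data known. All 30 members are named. Values in every liver are given for those with the 5 smallest p-values, the 5 largest within-group spreads, or groups that did not overlap, and for other sterol genes that passed the threshold or did not overlap; *Abcg8* was added beside its partner after its values were seen, as were the promoters shown. Shared exon stretches were counted over 36-base windows of the annotation. Replicate numbers name different mice. Alternatives changed the pseudocount, filter, scaling, trend, weights, block and livers used. The second experiment of the study was not analysed here.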

Additional observations from a re-analysis of the deposited data

Results flagged for a closer look

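Among the members and groups examined, 33 sets of FL values were checked for a liver far from the others of its group, and 3 passed the limit. Chance would give 1.6 if the sets were independent. They all come from the same FL livers, so the 3 cannot be read as an excess over 1.6. In each the liver was FL liver 3. *Cyp51* had 833 normalised counts there, against 1348 to 1435 in the other FL livers. *Msmo1* had 457, against 661 to 702. *Nr1h3* had 2334, against 1731 to 1790. The WT group of 3 livers was not checked in this way.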

How the results depend on the processing

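Of the 30 members, 0 passed the adjusted threshold in limma in any of the 19 alternative settings. In these settings 0 to 5 members had an unadjusted p under 0.05, beside 113 (replicate block) to 1512 (array weights) of all genes. The lowest adjusted p of a member was 0.174 (array weights, limma). With array weights 4 members had an unadjusted p under 0.05, beside 1512 of the 12545 genes. The 2 genes past the threshold among all genes became 0 with a pseudocount of 5, with at least 10 in every liver, with a mean of at least 50 and with limma without a trend (404, 356, 316 and 465 genes at an unadjusted p under 0.05), 1 with quantile normalisation, 5 with array weights, 6 without WT liver 2 and FL liver 3, and 0 to 5 when 1 liver was left out (5 without WT liver 3, 1 without FL liver 3 and 0 without any other, with 248 to 739 at an unadjusted p under 0.05). The cause of these changes was not tested.

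Signs of log2 fold changes were less stable. Of 568 alternative values, 500 kept their sign and side of the threshold and 68 reversed; 11 members, among them *Sc5d*, *Insig2*, *Mylip* and *Dhcr7*, reversed in none of the 19 settings. Reversed values were -0.011 for *Ebp*, -0.035 for *Srebf2*, -0.0038 for *Insig1* and -0.047 for *Nr1h3* with quantile normalisation and -0.001 for *Srebf2* with median-of-ratios scaling. With array weights they were -0.086 for *Mvd*, -0.13 for *Idi1*, -0.057 for *Fdps*, 0.096 for *Fdft1*, -0.072 for *Sqle*, -0.063 for *Lss*, -0.25 for *Cyp51*, -0.20 for *Msmo1*, -0.076 for *Nsdhl*, -0.026 for *Hsd17b7*, -0.039 for *Srebf2*, -0.055 for *Insig1*, 0.0027 for *Abca1* and 0.046 for *Soat2*. Without WT liver 2 and FL liver 3 they were -0.10 for *Mvd*, -0.18 for *Idi1*, 0.061 for *Fdft1*, -0.12 for *Sqle*, -0.083 for *Lss*, -0.25 for *Cyp51*, -0.15 for *Msmo1*, -0.046 for *Nsdhl*, -0.0042 for *Hsd17b7*, -0.08 for *Srebf2*, -0.074 for *Insig1*, -0.045 for *Stard4*, 0.0025 for *Abcg8* and 0.05 for *Soat2*. Leaving out 1 liver gave ranges of -0.078 to 0.23 for *Mvd*, -0.28 to 0.55 for *Idi1*, -0.18 to 0.81 for *Fdps*, -0.16 to 0.11 for *Fdft1*, -0.017 to 0.38 for *Sqle*, -0.046 to 0.14 for *Lss*, -0.44 to 0.47 for *Cyp51*, -0.30 to 0.35 for *Msmo1*, -0.19 to 0.25 for *Nsdhl*, -0.20 to 0.25 for *Hsd17b7*, -0.053 to 0.12 for *Ebp*, -0.12 to 0.10 for *Srebf2*, -0.23 to 0.18 for *Insig1*, -0.0037 to 0.10 for *Stard4*, -0.099 to 0.12 for *Nr1h3*, -0.10 to 0.06 for *Abca1*, -0.60 to 0.078 for *Abcg5*, -0.42 to 0.12 for *Abcg8* and -0.044 to 0.028 for *Soat2*. Of the members, 16 changed sign without WT liver 2 and 10 when another liver was left out. The cause was not tested.

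The replicate numbers of the labels name different mice. Deviations from the group mean, over all tested genes, correlated at 0.44, -0.48 and -0.66 between same-numbered livers. FL liver 3 and WT liver 2, which stood apart from the rest, correlated at 0.765. With these livers in both groups, the correlations cannot show whether the numbers pair mice. With the replicate block on the livers numbered 1 to 3, 0 genes passed the threshold (113 at an unadjusted p under 0.05 in limma), and the reversed log2 fold changes were -0.006 for *Ebp*, 0.06 for *Abca1* and 0.013 for *Soat2*. The precision of 7 livers limits every statement: SEs reach 0.487, and differences of low genes such as *Idi1* are also limited by depth.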
